A study of Mus musculus with 25 samples.

Results

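A list of 10 named genes of bile acid synthesis, transport and sensing was examined, and 9 of them were measured under their symbol among 33815 genes and unnamed probes on the arrays. The 9 are Cyp7a1, Cyp8b1, Cyp27a1, Cyp7b1, Baat, Slc10a1, Abcb11, Nr1h4 and Nr0b2. The other listed gene, Slco1b2, an uptake carrier of the basolateral membrane, was not analysed here because no probe was matched to its symbol. The genes were listed by name, not by a measured value, but earlier results of these data were known when they were chosen. Each is represented by its brightest probe. RNA came from homogenised liver of untreated mice and was hybridised to 25 single-colour Agilent arrays. In the knockout (KO) mice, hepatocytes lack the gene for Mcl-1, which counters apoptosis. The KO groups held 3 mice of 2 months, 3 of 8 months and 4 of 12 months. Tumor tissue, labelled as hepatocellular carcinoma, and the corresponding non-tumor liver were taken from each of the 7 older KO mice. Hemizygous (HEM) mice of 2 months (n = 3), wild-type (WT) littermates of 2 months (n = 2) and WT mice of 12 months (n = 3) were the other groups, and no WT or HEM liver of 8 months was analysed here. The labels give neither the driver of the deletion, nor the deleted part of the gene, nor the sex of the mice. The deletion is labelled as specific to hepatocytes, so the other cells of the homogenate are taken to keep the gene.

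Hepatocytes make bile acids from cholesterol by a neutral pathway that starts with Cyp7a1 and an alternative pathway that starts with Cyp27a1 and goes on through Cyp7b1. Cyp8b1 adds the hydroxyl group that makes cholic acid, and Baat joins the finished acid to taurine or glycine. Slc10a1 (NTCP) takes bile acids up from the blood and Abcb11 (BSEP) pumps them into bile. The nuclear receptor FXR, encoded by Nr1h4, senses bile acids, switches on Abcb11 and Nr0b2, and Nr0b2 (SHP) in turn lowers transcription of Cyp7a1 and Cyp8b1, in part by binding the activator NR5A2 (LRH-1).

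The 250 bases before the start of Cyp8b1, Cyp27a1, Slc10a1 and Abcb11 are printed because the first 3 were the members lower in older KO liver and Abcb11, the export pump, did not pass the test. The sequences are RefSeq windows of build GRCm38.p6, read 5′ to 3′ on the strand of the gene, and 7 of the 10 listed genes had one. Cyp8b1 lies at chr9:121916306-121916555 (minus strand), Cyp27a1 at chr1:74713285-74713534 (plus strand) and Abcb11 at chr2:69342617-69342866 (minus strand). Slc10a1 has 2 annotated starts, with windows at chr12:80968706-80968955 and chr12:80968080-80968329 (minus strand). Capitals mark matches on either strand to the nuclear receptor half-site AGGTCA, the HNF4A motif CAAAGTCCA or the NR5A2 motif CAAGGTCA, which itself contains AGGTCA.
Cyp8b1: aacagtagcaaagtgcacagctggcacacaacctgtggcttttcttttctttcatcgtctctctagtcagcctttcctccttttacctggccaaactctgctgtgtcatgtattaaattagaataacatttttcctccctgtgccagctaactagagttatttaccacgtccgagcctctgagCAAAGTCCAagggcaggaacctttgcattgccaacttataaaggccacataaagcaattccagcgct
Cyp27a1: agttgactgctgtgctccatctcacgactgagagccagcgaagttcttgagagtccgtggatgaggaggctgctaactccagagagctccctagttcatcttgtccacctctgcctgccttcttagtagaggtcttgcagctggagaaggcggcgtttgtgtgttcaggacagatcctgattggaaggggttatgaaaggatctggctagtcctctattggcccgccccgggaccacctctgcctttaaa
Slc10a1, upstream start: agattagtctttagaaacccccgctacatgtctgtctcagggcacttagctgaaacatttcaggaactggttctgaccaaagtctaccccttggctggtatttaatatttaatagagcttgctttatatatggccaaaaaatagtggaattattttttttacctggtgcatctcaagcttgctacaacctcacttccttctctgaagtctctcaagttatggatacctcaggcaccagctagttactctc
Slc10a1, downstream start: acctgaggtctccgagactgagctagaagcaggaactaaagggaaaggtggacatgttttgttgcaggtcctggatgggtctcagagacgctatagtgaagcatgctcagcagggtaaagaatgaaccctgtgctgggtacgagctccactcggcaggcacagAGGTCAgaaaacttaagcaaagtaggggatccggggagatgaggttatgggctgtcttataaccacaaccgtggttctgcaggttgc
Abcb11: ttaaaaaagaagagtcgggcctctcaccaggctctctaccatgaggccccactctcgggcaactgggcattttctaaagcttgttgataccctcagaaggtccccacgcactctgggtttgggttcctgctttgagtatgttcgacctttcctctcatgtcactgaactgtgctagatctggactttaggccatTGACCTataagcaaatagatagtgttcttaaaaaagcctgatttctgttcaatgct

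Cyp8b1 held the HNF4A motif, a match found in 0.384% of 32851 promoter windows of the same length. This motif was chosen after the sequence had been read. The downstream Slc10a1 window and the Abcb11 window each held a half-site AGGTCA, on the same strand in Slc10a1 and on the opposite strand in Abcb11. That half-site occurred in 14% of windows. Cyp27a1 and the upstream Slc10a1 window held none of the 3 motifs. The share was 1.33% for CAAGGTCA. A match describes the letters only.

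The share of probes well above background was 60.2% to 84.8%, highest in WT animal 641 and 76.3% in the next array. All 9 measured members were well above background on all 25 arrays. Arrays lay on 8 slides and 2 scan days, and WT animals 552 and 1110 shared their slide and scan day with the tumor of animal 1347 only. Mcl1 averaged 1.82 ± 0.28 in KO and 4.26 ± 0.34 in WT liver at 2 months (SD, n = 3 and 2), a fall of 2.44 on the log2 scale (SE 0.37, limma adjusted p = 0.046). HEM liver averaged 3.34 ± 0.21 (n = 3). Levels are log2 signals after subtraction of each array's 75th percentile, so 1 unit is a factor of 2, and levels of different genes are not comparable because each probe binds differently. The Y-linked transcript Ddx3y was well above background in 2 of 3 KO, 0 of 3 HEM and 1 of 2 WT mice of 2 months, in 1 of 3 KO mice of 8 months, in 2 of 4 KO mice of 12 months and in 2 of 3 WT mice of 12 months.

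**Figure D1:**
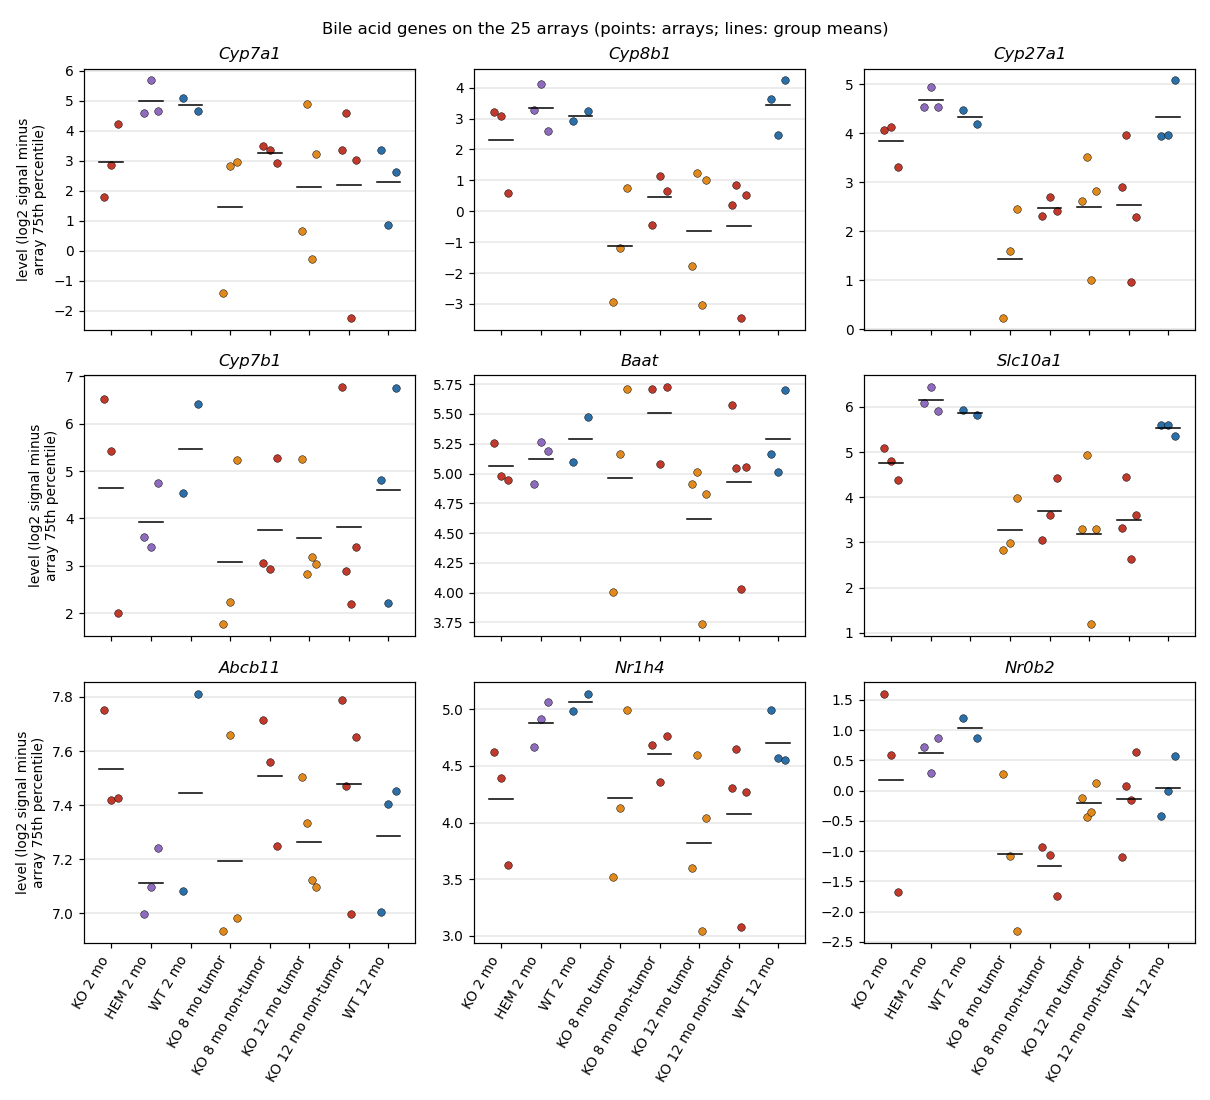
Level of each measured gene (y axis, log2 signal minus the array's 75th percentile, separate scale per panel) in the 8 groups (x axis). Each point is 1 array and each line a group mean. Slc10a1 lay at 2.63 to 4.44 in KO non-tumor liver of 12 months and at 5.36 to 5.61 in WT liver of 12 months.

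In non-tumor KO liver of 8 and 12 months, the uptake carrier Slc10a1 and the synthesis enzymes Cyp8b1 and Cyp27a1 had lower levels than in WT liver of 12 months, whereas Abcb11 and Baat did not pass the test. Slc10a1 and Cyp8b1 did not overlap between the groups, and Cyp27a1 overlapped through KO animal 638. Slc10a1 read 3.31, 4.44, 2.63 and 3.60 in the 4 KO mice of 12 months (1109, 638, 702 and 793) and 5.61, 5.60 and 5.36 in the WT mice of 12 months (552, 641 and 1110). It read 3.06, 3.60 and 4.42 in the KO mice of 8 months (1347, 1287 and 934). Every older KO non-tumor sample lay below every WT sample, also below the WT and HEM samples of 2 months. At 12 months alone, Slc10a1 differed by -2.03 (SE 0.39, adjusted p = 0.094), so it missed the threshold of 0.05 after adjustment over 27017 genes.

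Cyp8b1 read 0.20, 0.83, -3.44 and 0.51 in KO non-tumor liver of 12 months (1109, 638, 702 and 793) and 3.64, 2.47 and 4.23 in WT liver of 12 months (552, 641 and 1110). The KO samples of 8 months read -0.43, 1.14 and 0.65 (1347, 1287 and 934). The groups did not overlap here either, and animal 702 was far lower than the other KO mice. The difference at 12 months was -3.92 (SE 0.92, adjusted p = 0.107).

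Cyp27a1, which opens the alternative pathway, read 2.90, 3.96, 0.97 and 2.29 in KO non-tumor liver of 12 months (1109, 638, 702 and 793), and 3.95, 3.97 and 5.08 in WT liver of 12 months (552, 641 and 1110). KO animal 638 reached the lower WT values and the other KO mice lay below them. In the KO mice of 8 months it read 2.32, 2.70 and 2.42 (1347, 1287 and 934). The difference at 12 months was -1.80 (SE 0.52, adjusted p = 0.130).

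At 12 months, 0 of 9 members passed limma's test, against 0.0185% of all genes, and 3 of 9 had an unadjusted p under 0.05, against 17.3%. Among the 9 members, 2 did not overlap and were lower in KO, against 4.79% of all genes. When the KO non-tumor groups of 8 and 12 months were given equal weight against WT of 12 months, a contrast chosen after the data had been seen, 3 of 9 members fell, against 4.33% of all genes called (2.48% called lower). The unadjusted p was under 0.05 for the same 3 members and for 23.2% of genes, and 2 members were lower without overlap, against 3.36%. Slc10a1 fell by 1.93 (SE 0.35, adjusted p = 0.032), which is 3.80-fold lower. Cyp8b1 fell by 3.46 (SE 0.84, adjusted p = 0.0415), and Cyp27a1 fell by 1.83 (SE 0.47, adjusted p = 0.046). In this contrast the KO mice are in part younger than the WT mice.

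The calls depend on which arrays enter. Without KO animal 638, the 3 genes passed at 12 months alone, with Slc10a1 at -2.34 (adjusted p = 0.0032), Cyp8b1 at -4.36 (adjusted p = 0.016) and Cyp27a1 at -2.28 (adjusted p = 0.010). Without KO animal 702 the differences at 12 months were smaller, at -1.74 for Slc10a1, -2.93 for Cyp8b1 and -1.28 for Cyp27a1. In the contrast of 8 and 12 months, 0 members passed when WT animal 31, 34 or 1110, HEM animal 27, or KO animal 1347, 1109 or 793 was left out, 1 passed without HEM animal 28 or 30, KO animal 137, 64 or 1287, or WT animal 552, 2 without KO animal 69 or 702 or WT animal 641, and 3 without KO animal 934 or 638. With 1 array left out, genes called over the whole array numbered 1 to 2856 at 12 months (5 as reported). In the contrast of 8 and 12 months they numbered 4 to 4202 (1170 as reported). In that contrast 0 members passed also with the slide as a random block, where Slc10a1 differed by -1.96 (adjusted p = 0.069). On the scan day that holds all KO non-tumor arrays and a single WT array of 12 months (641), Slc10a1 averaged 3.60 in the older KO mice and 5.60 in that WT mouse, Cyp8b1 -0.01 and 2.47, and Cyp27a1 2.50 and 3.97. With the scan day as a fixed block these same differences were -2.0, -2.48 and -1.47, Slc10a1 passed (adjusted p = 0.047), and the median over all genes was -0.54.

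**Figure D2:**
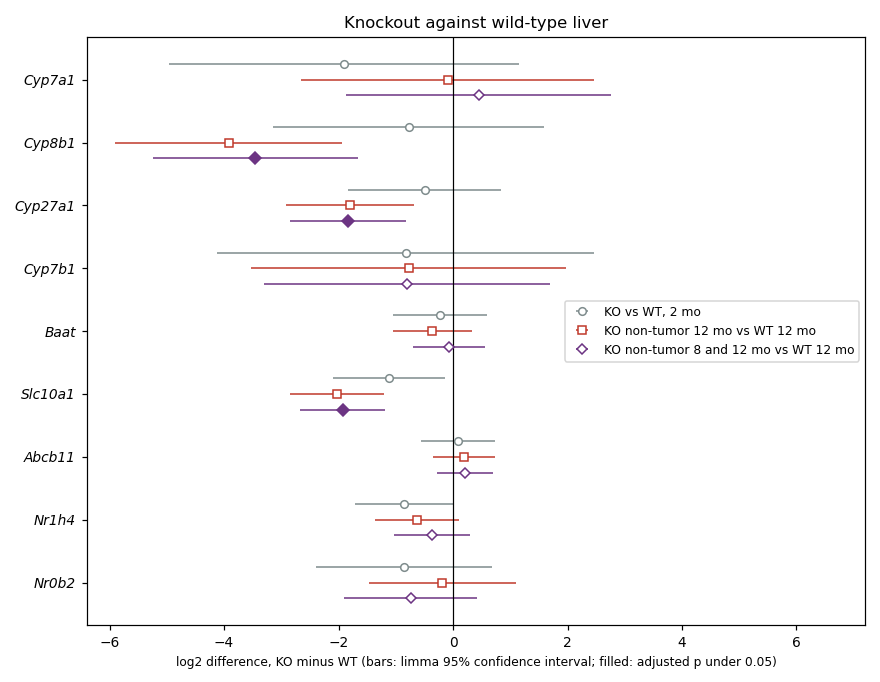
Difference KO minus WT (x axis, log2) for each measured gene (rows) at 2 months, at 12 months and for KO of 8 and 12 months against WT of 12 months. Bars are limma's 95% confidence intervals and filled symbols passed an adjusted p of 0.05: Slc10a1 at -1.93, Cyp8b1 at -3.46 and Cyp27a1 at -1.83, all in the last comparison.

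The export pump Abcb11 read 7.79, 7.47, 7.0 and 7.65 in KO non-tumor liver of 12 months (1109, 638, 702 and 793), and 7.0, 7.41 and 7.45 in WT liver of 12 months (552, 641 and 1110). The groups overlapped and the difference was 0.19 (95% interval -0.35 to 0.73, adjusted p = 0.751). Over all 25 arrays Abcb11 stayed between 6.93 and 7.81. The conjugating enzyme Baat averaged 4.93 ± 0.65 in KO non-tumor and 5.29 ± 0.36 in WT liver of 12 months (SD, n = 4 and 3), and differed by -0.36 (SE 0.32, adjusted p = 0.618). A second Baat probe gave -0.89 (adjusted p = 0.226).

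Cyp7a1, the rate-limiting enzyme of the neutral pathway, had a wide spread within groups at 12 months. It read 3.36, 4.60, -2.24 and 3.04 in KO non-tumor liver (1109, 638, 702 and 793) and 3.36, 0.87 and 2.61 in WT liver (552, 641 and 1110). The groups overlapped, animal 702 was the lowest of all, and the fitted difference was -0.09 (SE 1.20, adjusted p = 0.981). Without KO animal 702 the difference was 1.39, with the scan day as a block 1.32, and on the second probe -0.82, so that its direction depends on the arrays and settings. The bile acid receptor Nr1h4 averaged 4.07 ± 0.69 in KO non-tumor and 4.70 ± 0.25 in WT liver (SD, n = 4 and 3), with a difference of -0.63 (SE 0.34, adjusted p = 0.365). The repressor Nr0b2 averaged -0.13 ± 0.72 in KO non-tumor and 0.05 ± 0.50 in WT liver, with a difference of -0.19 (SE 0.60, adjusted p = 0.911). At 8 months Nr0b2 read -0.94, -1.06 and -1.73 in KO non-tumor liver (1347, 1287 and 934). Its difference from KO liver of 2 months was -1.42 (SE 0.64, adjusted p = 0.298).

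At 2 months KO liver had lower levels of Slc10a1, Nr1h4, Cyp7a1 and Cyp27a1 on the brightest probe than either WT liver in every mouse, but none of these differences passed the test. Both WT arrays lay on a slide that held no KO array, so slide and genotype cannot be told apart between these groups alone. Slc10a1 read 5.09, 4.80 and 4.37 in KO liver (137, 64 and 69), and 5.92 and 5.83 in WT liver (31 and 34). It differed by -1.12 (SE 0.46, adjusted p = 0.511). Nr1h4 read 4.62, 4.39 and 3.62 in KO and 4.99 and 5.14 in WT liver, a difference of -0.85 (SE 0.41, adjusted p = 0.577). For all 9 members the limma test gave 0 calls against 0.0259% of all genes, with 1 unadjusted p under 0.05 against 8.89%. The 4 members without overlap compare with 19.3% of all genes. Without WT animal 31, which leaves WT animal 34 alone, their number was 7, against 33.9% of all genes.

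Cyp7a1 read 1.81, 2.87 and 4.22 in KO liver of 2 months (137, 64 and 69), and 5.08 and 4.65 in WT liver (31 and 34). The KO values spread widely and lay below both WT values, and the difference was -1.90 (SE 1.43, adjusted p = 0.774). The second Cyp7a1 probe gave -0.90 and overlapped, with 0.56, 2.21 and 2.36 in KO liver (137, 64 and 69) and 3.09 and 2.14 in WT liver (31 and 34), and with it the count of members lower without overlap was 3. Transcription of Cyp7a1 follows the daily rhythm. Of 12 genes of the circadian clock limma called 0, and 7 had an unadjusted p under 0.05 (2 higher and 5 lower in KO), against 8.89% of all genes. The clock activator Arntl averaged 1.75 ± 1.15 in KO and -2.57 ± 0.22 in WT liver (SD, n = 3 and 2), and its output factor Dbp averaged 2.79 ± 2.63 and 6.89 ± 0.49. Over these clock genes the mean level per array was -1.18 to -0.65 in KO and -0.18 to -0.17 in WT liver. Arntl differed by 4.32 (SE 0.93, adjusted p = 0.191), and the part of the clock in the Cyp7a1 values was not tested. Cyp8b1 read 3.22, 3.08 and 0.61 in KO liver (137, 64 and 69), and 2.92 and 3.24 in WT liver, so that animal 69 alone was low (difference -0.78, SE 1.10, adjusted p = 0.903). Cyp27a1, Cyp7b1, Baat, Abcb11 and Nr0b2 differed by -0.49, -0.82, -0.23, 0.09 and -0.87.

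Against HEM liver of the same age, KO liver had lower levels of Slc10a1, Nr1h4, Cyp7a1 and Cyp27a1 without overlap, against 9.57% of all genes, and a higher level of Abcb11, against 16.1%. Slc10a1 read 6.08, 6.44 and 5.92 in HEM liver (27, 28 and 30), above the KO mice and next to WT. The difference of KO from HEM was -1.39 (SE 0.41, adjusted p = 0.361), and 0 of 9 members passed against 0.0518% of all genes, with 1 unadjusted p under 0.05, against 8.33%. Cyp7a1 read 4.60, 5.68 and 4.67 in HEM liver, and differed by -2.02 (SE 1.28, adjusted p = 0.735). Of the 12 clock genes, 2 were higher and 6 lower in KO by a limma unadjusted p under 0.05, against 8.33% of all genes. Their part in this Cyp7a1 difference was not tested. The count of members lower without overlap was 2 with normexp or with the authors' series matrix. On the slide that held KO animal 137 with HEM animals 27 and 28, Slc10a1 read 5.09 in KO and averaged 6.26 in HEM liver. Between HEM and WT liver of 2 months, 0 of 9 members passed limma's test, against 0.0% of 27008 genes, and 0 had an unadjusted p under 0.05, against 1.24%. Cyp27a1 was higher and Nr0b2 lower in HEM without overlap, against 8.55% and 9.93% of all genes. Slc10a1 differed by 0.27 (95% interval -0.72 to 1.25), Abcb11 by -0.33 (-0.98 to 0.31) and Cyp7a1 by 0.12 (-2.94 to 3.18). These intervals do not show that the groups are alike.

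Between 2, 8 and 12 months, mean Slc10a1 in KO liver without tumor was 4.75 ± 0.36, 3.70 ± 0.69 and 3.50 ± 0.75 (SD, n = 3, 3 and 4). Mean Cyp8b1 was 2.30 ± 1.47, 0.45 ± 0.80 and -0.47 ± 2.00, and mean Cyp27a1 was 3.83 ± 0.45, 2.48 ± 0.20 and 2.53 ± 1.25. KO liver of 12 months differed from KO liver of 2 months by -1.26 for Slc10a1 (SE 0.39, adjusted p = 0.206), by -2.77 for Cyp8b1 (SE 0.92, adjusted p = 0.208) and by -1.30 for Cyp27a1 (SE 0.52, adjusted p = 0.240). For 8 against 2 months the 3 differences were -1.06, -1.85 and -1.36, and for 12 against 8 months -0.20, -0.93 and 0.05. By limma, 0 of the 9 members passed in these 3 comparisons, in which 0.0074%, 0.0% and 0.0% of genes were called for 12 against 2, 8 against 2 and 12 against 8 months. The unadjusted p was under 0.05 for 3, 3 and 0 members, against 17.4%, 16.1% and 5.25% of genes. Cyp27a1 was lower at 8 than at 2 months without overlap, against 11.5% of genes.

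In WT liver Cyp7a1 was lower at 12 than at 2 months in every mouse, with means of 2.28 ± 1.28 and 4.87 ± 0.31 (SD, n = 3 and 2). The difference of -2.58 (SE 1.43) had an adjusted p of 0.539. Slc10a1 and Nr0b2 were also lower without overlap, by -0.35 and -0.99, against 12.4% of all genes. No slide held WT arrays of both ages, so slide and age cannot be told apart between these groups alone. Over the alternatives other than a left-out array, Cyp7a1 differed by -6.21 to -1.30, Slc10a1 by -0.36 to -0.12 and Nr0b2 by -1.05 to 1.45. Of the 12 clock genes, 1 was higher and 3 lower at 12 months by a limma unadjusted p under 0.05, against 10.6% of all genes. The part of the clock in the Cyp7a1 values was not tested here either. By limma 0 of 9 members passed, against 0.0407% of genes, and 0 had an unadjusted p under 0.05, against 10.6%. The KO difference at 12 months minus that at 2 months was -3.14 for Cyp8b1 (SE 1.44, adjusted p = 0.511), -1.31 for Cyp27a1 (SE 0.81, adjusted p = 0.601) and -0.91 for Slc10a1 (SE 0.60, adjusted p = 0.617). By limma, 0 of 9 members and 0.0% of 27009 genes passed this test, with an unadjusted p under 0.05 for 1 member and 9.6% of genes.

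No member passed the test between tumors and the non-tumor liver of the same animals. The mean difference was below 0 in 8 of 9 members, from -0.81 for Cyp7a1 to -0.26 for Abcb11, with Nr0b2 at 0.05, and all adjusted p were 0.999. Cyp7a1 was higher in the tumor of 4 of 7 animals, and without animal 1347 its difference was -0.12. The limma fit with the animal as a block called 0 of 24574 genes, 0.0%, and 0 members had an unadjusted p under 0.05, against 4.04% of all genes. No member was lower in all 7 animals, a pattern that 0.85% of all genes showed. Slc10a1, Cyp7b1, Baat and Nr1h4 were lower in the tumor of 6 of 7 animals, and 6.05% of all genes were lower in at least 6.

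The animals fell into differing patterns. In animal 1347 Cyp7a1 read -1.42 in the tumor and 3.50 in the non-tumor liver, Cyp8b1 -2.93 and -0.43, and Cyp27a1 0.23 and 2.32. In animal 1109 Cyp7a1 read 0.67 in the tumor and 3.36 in the non-tumor liver, and Cyp8b1 -1.76 and 0.20. Animal 1287 had Cyp8b1 at -1.18 in the tumor and 1.14 in the non-tumor liver. In the other 4 animals Cyp8b1 was 0.10 to 0.48 higher in the tumor, and in animal 702 it was low in both, at -3.02 in the tumor and -3.44 in the non-tumor liver. Tumor and non-tumor arrays of animal 1347 lay on different slides and scan days, and the other 6 pairs shared a slide. Slc10a1 in tumors lay at 1.19 to 4.94 with a median of 3.29, and in the paired non-tumor livers at 2.63 to 4.44 with a median of 3.60. All 7 tumors were below the lowest WT liver, 5.36. The tumor difference at 12 months minus that at 8 months was 1.42 for Cyp8b1 (SE 0.83) and 1.01 for Cyp27a1 (SE 0.52), and 0 of 9 members passed limma's test (smallest adjusted p = 0.862), against 0.0% of all genes, with 0 members at an unadjusted p under 0.05, against 6.06%.

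**Figure D3:**
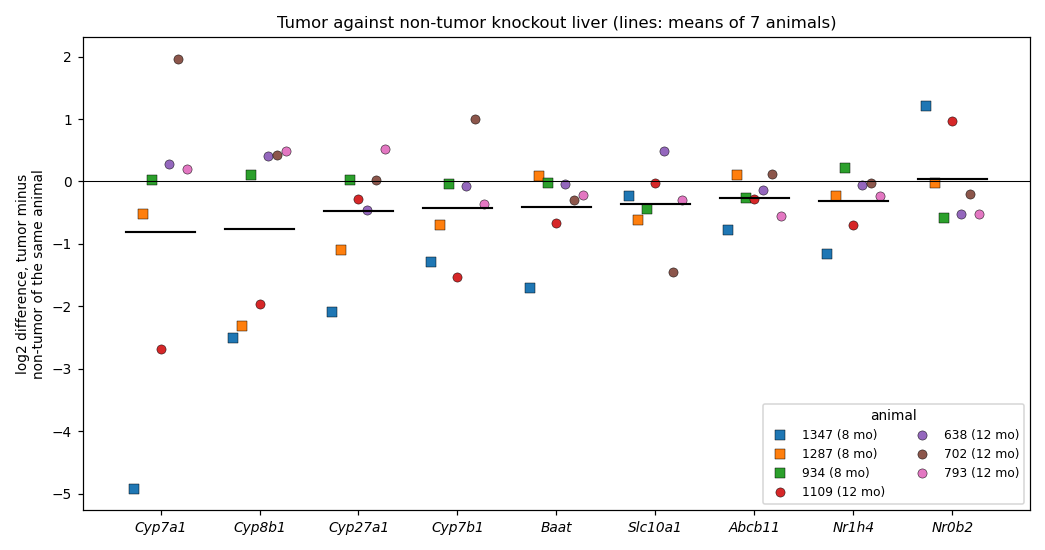
Tumor minus non-tumor level of the same animal (y axis, log2) for each measured gene (x axis). Squares are the 3 animals of 8 months, circles the 4 animals of 12 months and lines the means over 7 animals. Animal 1347 had the lowest difference in Cyp7a1, at -4.92, and in Baat, at -1.70.

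Cyp8b1, Cyp27a1 and Slc10a1 varied together over the 25 arrays, which are 18 mice and include 7 pairs from the same mouse. Pearson's r was 0.936 for Cyp8b1 and Cyp27a1, 0.906 for Cyp8b1 and Slc10a1, and 0.901 for Cyp27a1 and Slc10a1. Nr1h4 also followed them, with r of 0.810 against Cyp8b1, 0.724 against Cyp27a1 and 0.786 against Slc10a1. For Cyp7a1 these values were 0.696, 0.711 and 0.645. Abcb11 did not share this pattern, with r of -0.06 against Slc10a1 and 0.09 against Cyp8b1. Among 10944 genes compared, the one most like Cyp8b1 was Cyp27a1 itself, the one most like Slc10a1 was Car7 (r = 0.959), and the one most like Cyp27a1 was C2cd2 (r = 0.968). Oat was closest to Cyp7a1 (r = 0.874), Ttc39c to Cyp7b1 (r = 0.931), Srr to Baat (r = 0.888), Cyp2e1 to Nr1h4 (r = 0.902), Abca8a to Nr0b2 (r = 0.791) and Apol9b to Abcb11 (r = 0.719). The arrays also share group differences, so these values describe the data set as a whole.

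**Figure D4:**
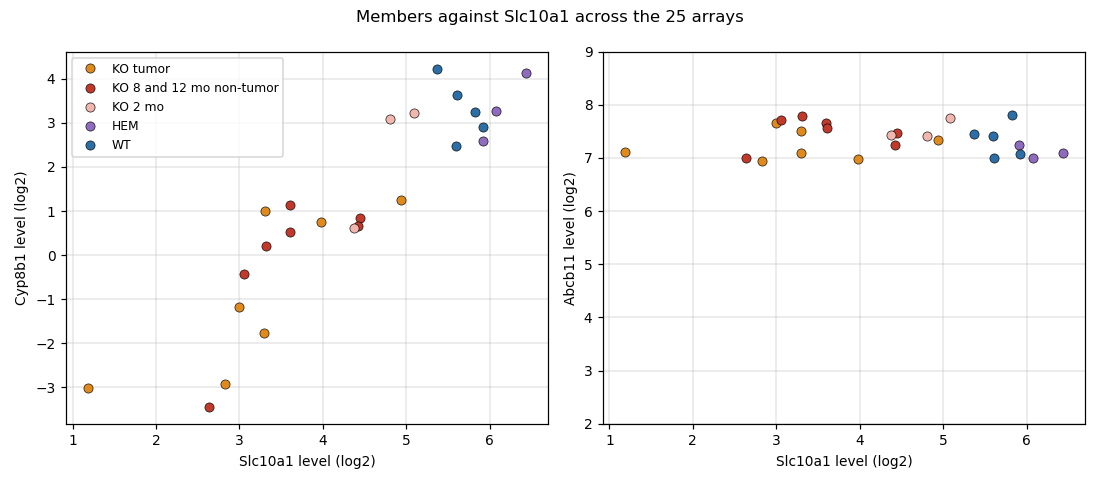
Cyp8b1 (left, y axis) and Abcb11 (right, y axis) against Slc10a1 (x axes), all as log2 levels, with 1 point per array and colours for the groups. Cyp8b1 followed Slc10a1 (r = 0.906, n = 25) and Abcb11 did not (r = -0.06).

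Cyp7b1, the second step of the alternative pathway and a male-biased transcript of mouse liver, was higher in most mice with Y-linked Ddx3y than in those without. In KO livers without tumor its level was 2.20 to 6.78 (median 5.42, n = 5) with Ddx3y well above background and 2.01 to 3.40 (median 2.93, n = 5) without. In WT and HEM livers it was 4.81 to 6.76 (median 6.42, n = 3) with Ddx3y and 2.21 to 4.74 (median 3.60, n = 5) without. KO animal 702, in which Ddx3y was well above background, was the exception, with Cyp7b1 at 3.19 in the tumor and 2.20 in the non-tumor liver. The differences of KO from WT were -0.82 (SE 1.54, adjusted p = 0.929) at 2 months and -0.78 (SE 1.29, adjusted p = 0.812) at 12 months. In a fit that adds the level of Xist, the fall of Slc10a1, Cyp8b1 and Cyp27a1 in KO liver of 8 and 12 months was 1.99, 3.43 and 1.90, with adjusted p of 0.022, 0.035 and 0.035.

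**Figure D5:**
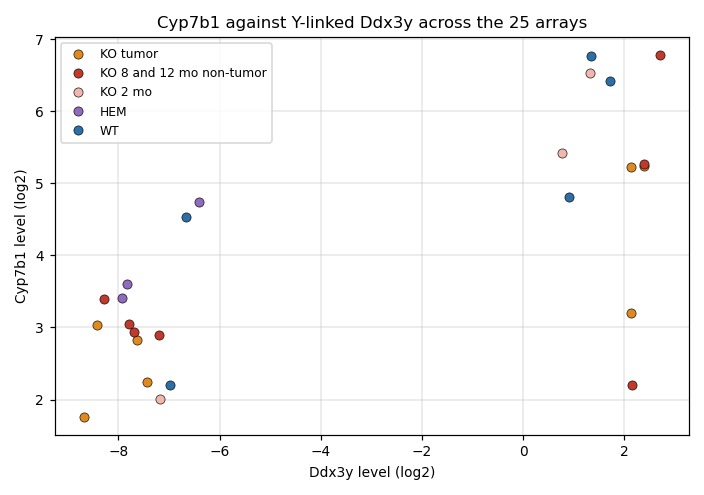
Level of Cyp7b1 (y axis, log2) against the level of Y-linked Ddx3y (x axis, log2), with 1 point per array and colours for the groups. Arrays with Ddx3y above 0 had Cyp7b1 at 4.81 or more, apart from the tumor (3.19) and the non-tumor liver (2.20) of animal 702.

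Beyond the members, 14 other synthesis genes, 14 other transporters and 14 regulators were tested. In KO non-tumor liver of 8 and 12 months against WT of 12 months, 0 of 14 other synthesis genes and 0 of 14 other transporters passed, with medians of -0.21 and -0.01 beside -0.01 for all genes. By an unadjusted p under 0.05, 2 of the 14 other synthesis genes and 3 of the 14 other transporters were past the threshold, against 23.2% of all genes. Among the 14 regulators 6 differences were positive and 8 negative, with a median of -0.23, and 5 had an unadjusted p under 0.05 (1 higher and 4 lower). By the adjusted p, 1 of the 14 passed, against 4.33% of all genes: Nr5a2, the receptor LRH-1 that activates Cyp7a1 and Cyp8b1 transcription, averaged 1.70 ± 0.31 in the 7 KO and 2.62 ± 0.37 in the 3 WT livers and fell by 0.93 (SE 0.24, adjusted p = 0.045). With only the compared groups in the fit, limma called 0 genes on the whole array, with 4347 at an unadjusted p under 0.05, so that this call was lost. At 2 months Nr5a2 averaged 2.06 ± 0.22 in KO and 1.76 ± 0.06 in WT liver (adjusted p = 0.856). Among those that did not pass, Akr1d1, a reductase of bile acid synthesis, differed by 1.05 (adjusted p = 0.052), the basolateral exporter Abcc3 by -0.75 (adjusted p = 0.063), and Klb, the co-receptor for the bile acid hormone FGF15, by -0.63 (adjusted p = 0.081). The hepatocyte factor Hnf4a differed by 0.04.

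At 2 months 0 of the 14 genes passed limma's test in each of these 3 lists, and an unadjusted p under 0.05 was found for 2 synthesis genes, 0 transporters and 1 regulator, against 8.89% of all genes. The largest differences by p were those of Cyp46a1, a cholesterol hydroxylase, at -2.15 (SE 0.57, adjusted p = 0.282), and of the acyl-CoA synthetase Slc27a2 at -0.96 (SE 0.27, adjusted p = 0.320). In tumors against non-tumor liver, Slc27a5, the bile acyl-CoA synthetase, differed by -0.47 (SE 0.16) and Hsd3b7, an early step of ring modification, by -0.35 (SE 0.18), both with an adjusted p of 0.999.

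Whole liver holds other cells, and fewer hepatocytes and less RNA per hepatocyte cannot be told apart in these samples. The hepatocyte markers measured, 5 of 8 with Alb among them, averaged 6.53 to 6.70 per array in KO non-tumor liver of 12 months, 6.45 to 6.65 in KO non-tumor liver of 8 months and 6.52 to 7.12 in WT liver of 12 months. At 2 months they averaged 6.65 to 7.02 in KO and 7.09 to 7.10 in WT liver. Albumin differed by -0.39 (adjusted p = 0.383) in the contrast in which Slc10a1 fell by 1.93. There 2 of the 5 markers had positive and 3 negative differences, and 1 was called, against 4.33% of all genes: Apoa1, which fell by 1.17 (adjusted p = 0.048). Ttr, a secreted carrier of thyroid hormone, averaged 5.53 ± 0.38 in KO and 4.90 ± 0.09 in WT liver (SD, n = 7 and 3), a difference of 0.63 (SE 0.24, adjusted p = 0.128). Macrophage markers, 7 of 8 measured, averaged 2.88 to 3.70 in KO non-tumor liver of 12 months, 1.87 to 3.33 in KO non-tumor liver of 8 months and 0.53 to 2.62 in WT liver of 12 months. Cholangiocyte markers averaged -1.39 to -0.61, -1.49 to -0.37 and -2.01 to -0.85 in the same groups, with 6 of 8 differences positive, a median of 0.65 and 1 of 8 called, Spp1, which rose by 1.88 (adjusted p = 0.044). Stellate markers averaged 1.80 to 2.18, 1.19 to 2.62 and 0.75 to 2.32, with 6 of 8 differences positive and a median of 0.60. Among these 8, 3 were higher and 1 lower at a limma unadjusted p under 0.05, against 23.2% of all genes. Of these 8, 1 was called, Acta2, which fell by 1.64 (adjusted p = 0.033). T and NK cell markers averaged -2.57 to -1.80, -3.47 to -2.36 and -4.34 to -2.42, and endothelial markers 0.59 to 1.0, 0.44 to 0.93 and 0.36 to 1.02. In the same contrast, differences were positive in 7 of 7 macrophage, 7 of 8 T and NK and 4 of 8 endothelial markers. By the unadjusted p, 4 macrophage, 3 T and NK, 2 cholangiocyte and 1 endothelial markers were higher. Lower were 1 cholangiocyte and 1 endothelial marker, and the share over all genes was 23.2%. At 2 months macrophage markers averaged 2.95 to 3.02 in KO and 1.41 to 1.55 in WT liver, and stellate markers 2.28 to 2.51 and 1.03 to 1.06. The part of cell composition in the member values was not tested.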

How the data were processed

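Single-colour Agilent scanner files of 25 liver arrays were used, with samples grouped by the deposited labels. The authors deposited the processed signal of each spot as an intensity, already detrended and background-subtracted within the array per the file headers, and a matrix of processed log2 values, used only as an alternative; its normalization is not given in the sources used here. The submitters' processing notes name limma without its role. Control and outlier spots were left out, log2 of the intensity was taken, spots of a probe were averaged and the array's 75th percentile was subtracted. Probes were named through accession, and each gene is its brightest probe. Genes well above background on at least 2 of 18 arrays (3 of 14 for tumor pairs) were tested with limma 3.58.1 in R 4.3.3, adjusted by Benjamini-Hochberg, with a threshold of 0.05. One fit held the 18 arrays without tumor (12 residual degrees of freedom) and the other the 7 tumor pairs with the animal as a block, since the labels' animal numbers pair them (6 residual degrees of freedom). The number of arrays limits the precision. The p-values weigh a difference against a spread pooled over all groups of the fit, which for tumor pairs is the spread of the differences within animals. The procedure was tested on simulated data with large changes, equal noise for all genes and no slide or scan-day effects. That checks the code and not its power on these arrays. Alternatives were other normalizations (normexp with offset 50 used the median signal, because the planned mean signal was not among the columns), filters, probes, blocks for slide and scan day, Xist as a covariate, other sets of arrays, and each array left out. All measured members are counted in every comparison, but several comparisons print the values of only some of them. Also named are Mcl1 as a label check, other pathway genes where they passed or were among the smallest p, and the genes most similar by Pearson's r. The members and gene lists were chosen with earlier results of these data known.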

Additional observations from a re-analysis of the deposited data

Results flagged for a closer look

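Single arrays far from the rest of their group were sought in 27 groups of 4 or more values, and 4 were found. Chance flags about 1 in 20 such groups. Cyp8b1 read -3.44 in the non-tumor liver of KO animal 702 at 12 months, and its gap to the next value was 0.852 of the range of the group. Cyp7b1 read 5.25 in the tumor of animal 1109 (gap 0.850 of the range), one of the tumors with Ddx3y well above background. Baat read 3.73 in the tumor of animal 702 (gap 0.856 of the range). The difference of tumor minus non-tumor Baat was -1.70 in animal 1347 (gap 0.580 of the range), whose tumor and non-tumor arrays lay on different slides and scan days. The part of these in the values was not tested.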

How the results depend on the processing

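At 12 months the count of members past the threshold, 0, became 2 with normexp and quantile normalization, 2 with the deposited matrix, 2 with genes well above background on every array, 1 with a trended robust fit and 1 with the scan day as a block, and it was 0 to 3 with 1 array left out. In KO liver of 12 against 2 months the count was 0 to 2 with 1 array left out. For KO liver of 8 and 12 months, chosen after seeing the data, the count of 3 became 1 without a filter, 0 with the slide as a random block, 1 with the scan day as a block, 1 with all 25 arrays in the model, 0 with only the compared groups, and 0 to 3 with 1 array left out. The cause was not tested. In that contrast, normexp also called Abcb11 (0.62). The member counts above are not set beside the share of all genes in the same setting, and the whole-array number of calls changed as well. With 1 array left out, that number was 1 to 2856 at 12 months and 0 to 946 for KO 12 against 2 months. For KO liver of 8 and 12 months it was 4 to 4202. The counts of members in the other comparisons stayed at 0 under the alternatives run. For tumor pairs without the replicate block, 0 members passed. Of 3186 alternative values of single members, 48 lost a call, 15 gained one, 0 reversed the sign of a call and 147 uncalled values changed sign. The lost calls were those of KO liver of 8 and 12 months. Cyp27a1 lost its call in 21 of 31 settings, Cyp8b1 in 18 and Slc10a1 in 9. Genes called over the whole array, over the alternatives other than a left-out array, numbered 0 to 43 for KO against WT at 2 months (7 as reported), 11 to 69 for KO against HEM (14), 0 to 18 for HEM against WT (0), 0 to 3232 at 12 months (5), 0 to 110 for WT age (11), 0 to 405 for KO 8 against 2 months (0), 0 to 1327 for KO 12 against 2 months (2), 0 to 190 for the difference of KO effects (0) and 0 to 2883 for KO of 8 and 12 months (1170). A slide as a fixed block could not be fitted for the older KO livers. For the tumor pairs it was fitted, and no gene was called there under any alternative.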
